A study of Mus musculus with 7 samples.

Results

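Expression of 9 marker genes was examined in macrophages sorted from the healing sciatic nerve. Of these, 6 are associated with blood monocytes (Ly6c1, Ly6c2, Ly6a, Ly6i, Plac8 and Ifitm6) and 3 with macrophages (Emr1, Emr4 and Cd68). Emr4 is also found on other myeloid cells. The genes were chosen by symbol among the 23361 genes quantified, with earlier results of these data known. Each had a value in all 7 libraries. The gene lists below were chosen with the same knowledge, so their counts of calls are a description. In the study, the left sciatic nerve of wild-type BALB/cJ mice was cut, both stumps were sutured into an inert conduit straight away, and the tissue bridge that grew inside was collected 5, 14 or 28 days later. Cells were sorted as Lin-F4/80+CD14+CD11b+CD16/32+, where Lin- stands for the exclusion of granulocytes, eosinophils, B cells, T cells, red cells and Thy1.2+ cells. PolyA+ RNA was sequenced in 3 libraries for day 5 and in 2 each for days 14 and 28, with 18027190 to 35247116 fragments assigned to genes per library. Groups of equal size are described for the time course, and why fewer libraries are listed for the later days is not given. No uninjured nerve and no blood monocytes were included, and all groups share the same strain, injury and repair. The age of these mice is not given in the sources used here, and whether a library stands for a single mouse is not stated outright, so the p-values measure the spread between libraries, which may in part be technical. Because sorted cells were sequenced in bulk, fewer cells of a type and less RNA per cell cannot be told apart. The gate itself required the protein of Emr1, so cells without F4/80 were not collected.

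After injury, Ly6C-high monocytes leave the blood, enter the nerve and differentiate into macrophages that clear myelin and debris. Ly6C is the product of the neighboring genes Ly6c1 and Ly6c2, and during differentiation monocytes usually lose Ly6C and Plac8 while F4/80 and lysosomal proteins such as CD68 accumulate. Several Ly6 and Ifitm genes also respond to interferons, and Ly6a and Ly6c1 are known to be expressed by endothelial cells, so that none of these markers belongs to monocytes alone.

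All 9 genes passed the expression filter and entered the test. From day 5 to day 28, the Ly6 genes and Plac8 fell by far more than Emr1, while Emr4 rose and Cd68 was not called. The division into monocyte and macrophage markers was therefore only partly seen in these cells, and the genes are referred to below by their known association and not by their behavior. Of the 9 genes, 6 were called lower at day 28 than at day 5 and 1 was called higher, with edgeR's quasi-likelihood test at a Benjamini-Hochberg adjusted p under 0.05. Over all 12858 genes tested, 7.51% were called lower and 7.73% higher. As the 9 genes were chosen with earlier results of these data known, this is a description and not a test of the set. For 8 genes both day 28 libraries lay below all 3 day 5 libraries in FPKM (fragments scaled for transcript length and library size), and for Emr4 both lay above. Among all genes tested, the same separation was found for 25.6% (below) and 26.0% (above). The 2 day 14 libraries were unlike, since replicate 1 lay within or above the day 5 range and replicate 2 below it for Ly6c1, Ly6c2, Ly6i and Plac8. For this reason the value of each library is given first.

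**Figure D1:**
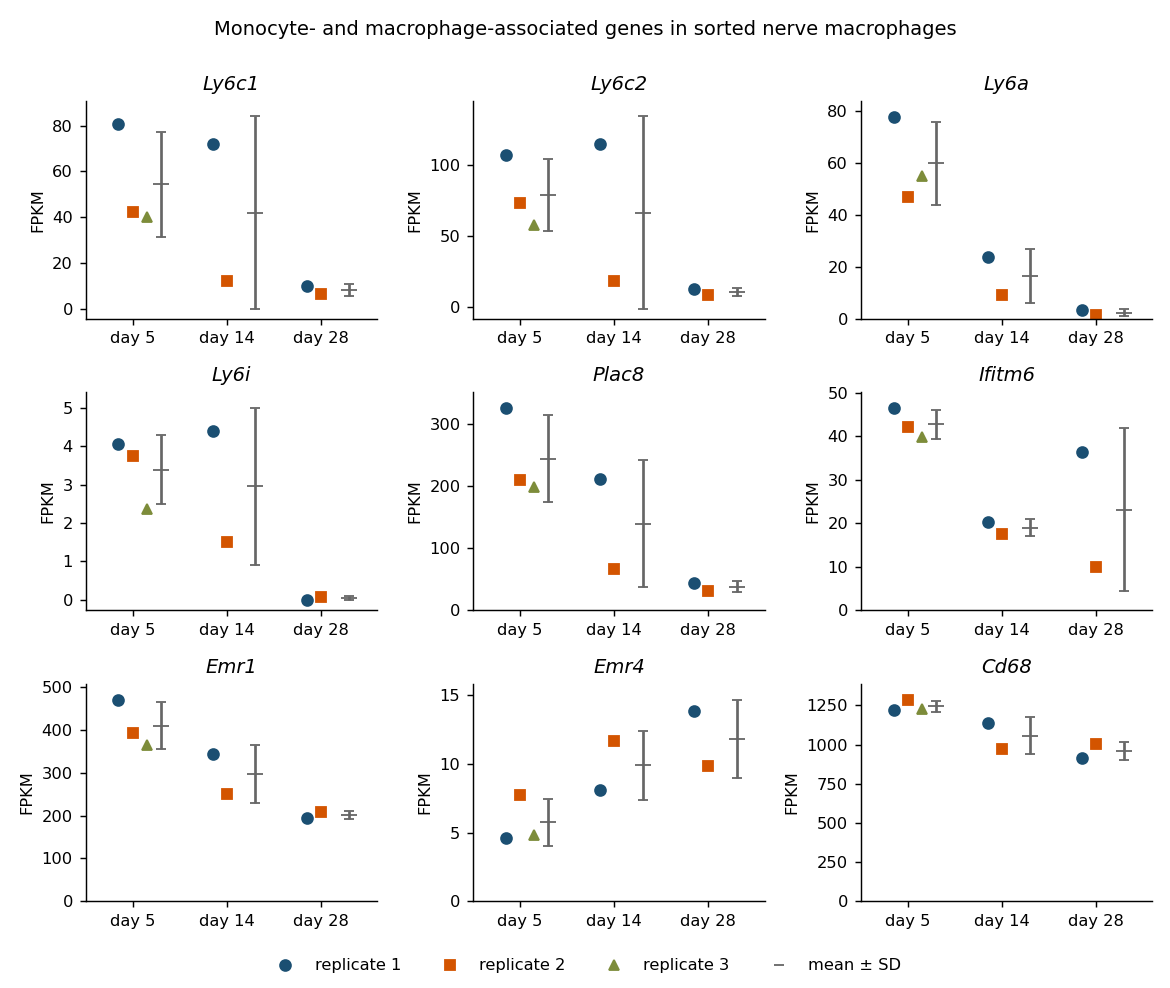
FPKM of the 9 genes (y axis of each panel, from 0 or just below) in each library by day after nerve repair (x axis), with symbols for the replicate and gray bars for the mean ± SD (n = 3 libraries at day 5, n = 2 at days 14 and 28). For Ly6c2, day 14 replicate 1 (114 FPKM) lies with the day 5 libraries and replicate 2 (18.2 FPKM) near the day 28 libraries, whereas Cd68 ranges from 916 to 1287 FPKM throughout.

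The Ly6c pair encodes the GPI-anchored surface proteins that define Ly6C-high monocytes. Ly6c1 and Ly6c2 lie on the minus strand of chromosome 15 (chr15:75044018-75048830 and chr15:75108158-75111970, GRCm38, the assembly also called mm10), and their longest coding transcripts are 95.0% identical over 844 aligned positions. The 250 bases before the first RefSeq start site of each gene are given from GRCm38.p6, because both genes moved together in all libraries. They cover chr15:75048838-75049087 and chr15:75111972-75112221, both on the minus strand, and are written 5′ to 3′. Capitals mark GAGGAAGT, 1 exact form of the binding motif of PU.1, a transcription factor of myeloid cells. This form is called the PU.1 core here.
Ly6c1: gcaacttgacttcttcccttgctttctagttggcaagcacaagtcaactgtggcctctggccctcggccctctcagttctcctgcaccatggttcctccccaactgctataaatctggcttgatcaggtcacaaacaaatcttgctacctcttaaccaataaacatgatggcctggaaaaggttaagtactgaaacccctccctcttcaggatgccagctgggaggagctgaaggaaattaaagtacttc
Ly6c2: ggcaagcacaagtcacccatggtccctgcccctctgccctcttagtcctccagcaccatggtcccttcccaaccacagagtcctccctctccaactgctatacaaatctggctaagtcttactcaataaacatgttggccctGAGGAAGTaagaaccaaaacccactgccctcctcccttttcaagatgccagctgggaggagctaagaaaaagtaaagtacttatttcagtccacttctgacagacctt
Aligned end to end, these stretches were 59.0% identical over 290 aligned positions. The PU.1 core (GAGGAAGT) was found once before the first start site of Ly6c2, where it begins 108 bases upstream, and not before that of Ly6c1. Both genes also have a second, more downstream start site, whose 250 upstream bases held the core once in Ly6c1 and in 2 places in Ly6c2, of which the farther is the site already counted, as both windows of Ly6c2 overlap. The same letters were present on either strand in 2.44% of 32851 promoters. Only these exact letters were searched, so shorter or variant forms of the PU.1 motif may be present where none is marked. The core of ISRE, the element of type I interferon response (GAAANNGAA, in 7.13% of promoters), was absent from the windows of the Ly6c genes. Overlap between motifs was allowed. A match is a description of the letters and does not show binding.

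Ly6c2 was expressed at 107, 72.8 and 57.1 FPKM in day 5 replicates 1, 2 and 3, at 114 and 18.2 FPKM in day 14 replicates 1 and 2, and at 12.2 and 8.31 FPKM in day 28 replicates 1 and 2. The first day 14 library exceeded all day 5 libraries, the second was near the day 28 libraries, and days 5 and 28 did not overlap. Ly6c1 also split at day 14, although replicate 1 lay within its day 5 range, with 80.7, 42.2 and 40.0 FPKM at day 5, 71.8 and 12.2 FPKM at day 14, and 9.96 and 6.21 FPKM at day 28. From day 5 to day 28, Ly6c2 fell by 2.90 on the log2 scale (SE 0.66, adjusted p = 0.0206) and Ly6c1 fell by 2.70 (SE 0.68, adjusted p = 0.0286, both from edgeR). The means at day 14 had SDs as large as themselves (66.2 ± 67.9 FPKM for Ly6c2 and 42.0 ± 42.1 FPKM for Ly6c1, n = 2), and neither step that involves day 14 was called for these genes by edgeR (adjusted p from 0.168 to 0.825). Without the expression filter, both genes were called lower at day 28 than at day 14. Of the 75-base windows of the Ly6c2 transcript, 21.9% occur letter by letter in the transcripts of another gene, as do 23.2% of those of Ly6c1. Reads from these windows could not be assigned to a single gene, and how they were divided is not given in the sources used here. The ratio of Ly6c2 to Ly6c1 in FPKM stayed between 1.23 and 1.72 in the 7 libraries, so that the values of both genes may not be independent of each other.

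Ly6a encodes Sca-1, a GPI-anchored protein of hematopoietic progenitors and endothelium that interferons can induce. It was expressed at 77.8, 46.8 and 55.1 FPKM at day 5, 23.8 and 9.21 FPKM at day 14, and 3.25 and 1.41 FPKM at day 28. Here no groups overlapped, and each day lay below the one before. Ly6a was the 1 member called between days 5 and 14, where it fell by 1.85 (SE 0.40, adjusted p = 0.0383, edgeR). By day 28 it fell by 4.60 relative to day 5, which was called in all 17 alternative analyses (adjusted p = 0.00101, edgeR, and from 1.06e-12 to 0.0179 in the alternatives). Only 2.38% of the windows of its transcript occur in other genes. Ly6i, a further gene of the cluster (chr15:74979534-74983430), was the least abundant, with 67, 52 and 35 fragments at day 5, 54 and 23 at day 14, and 0 and 1 at day 28. In FPKM these were 4.06, 3.73 and 2.36, then 4.41 and 1.51, then 0 and 0.0767. Pooled over libraries and adjusted for their effective size, the single fragment at day 28 against 154 at day 5 gives a ratio of 0.00757 (95% exact binomial interval 1.91e-04 to 0.0428, counting error only). The decrease was called (adjusted p = 0.00436, edgeR), with a fitted log2 fold change that depends on the prior count and is not given as a bound.

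Plac8, a small cysteine-rich protein used as a marker of Ly6C-high monocytes (chr5:100553725-100572245, minus strand), was the most abundant of the monocyte-associated genes. It was expressed at 326, 209.8 and 199 FPKM at day 5, 212 and 66.5 FPKM at day 14, and 43.5 and 31.2 FPKM at day 28. Day 14 replicate 1 lay within the day 5 range and replicate 2 between days 5 and 28. By day 28 Plac8 fell by 2.69 on the log2 scale, relative to day 5 (SE 0.45, adjusted p = 0.00638, edgeR), and the steps over day 14 were not called (adjusted p = 0.264 and 0.153), although without the expression filter Plac8 was called lower at day 28 than at day 14. Ifitm6, a relative of the interferon-induced antiviral membrane proteins that is expressed by bone marrow myeloid cells, behaved differently. Its level was 46.4, 42.0 and 39.7 FPKM at day 5, 20.3 and 17.6 FPKM at day 14, and 36.4 and 9.78 FPKM at day 28. Both day 14 libraries were low, and the 2 day 28 libraries differed 3.72-fold. None of its comparisons was called by edgeR with the expression filter and all libraries fitted together (adjusted p = 0.140, 0.812 and 0.201 for day 14 vs 5, 28 vs 14 and 28 vs 5). Ifitm6 was called lower at day 14 than at day 5 by DESeq2, by edgeR without the filter, and when only those time points were fitted. Without day 28 replicate 1, Ifitm6 was called lower at both day 14 and day 28 than at day 5, the single remaining day 28 library being assumed to vary like the others.

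The macrophage-associated genes included 2 of the EGF-TM7 family, adhesion receptors with EGF-like domains and 7 membrane passes. Emr1 (now Adgre1), which encodes F4/80, was expressed at 470.0, 393 and 365 FPKM at day 5, 344 and 249 FPKM at day 14, and 195 and 209 FPKM at day 28. The days did not overlap, and day 28 was the lowest. From day 5 to day 28 Emr1 fell by 1.01 on the same scale (SE 0.17, adjusted p = 0.00650, edgeR), a smaller estimate than for any called Ly6 gene or Plac8. Its day 28 libraries were at a ratio of 0.936. Emr4 (now Adgre4), a relative that is also found on myeloid cells, was expressed at 4.64, 7.74 and 4.87 FPKM at day 5, 8.13 and 11.7 FPKM at day 14, and 13.9 and 9.84 FPKM at day 28. Days 5 and 28 did not overlap, and Emr4 rose by 1.06 between them (SE 0.25, adjusted p = 0.0232, edgeR). Its transcript level nevertheless stayed far below that of Emr1, with a ratio of Emr4 to Emr1 of 0.00987 to 0.0197 in the day 5 libraries and 0.0472 to 0.0710 in the day 28 libraries. Emr1 and Emr4 transcripts were 51.9% identical, and none of the 75-base windows of either occurs in another gene.

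Cd68, a heavily glycosylated protein of late endosomes and lysosomes and a general macrophage marker, was expressed at 1219, 1287 and 1226 FPKM at day 5, 1141 and 973 FPKM at day 14, and 916 and 1001 FPKM at day 28. All later libraries lay below the day 5 libraries, while days 14 and 28 overlapped. The log2 fold change at day 28 relative to day 5 was -0.36 (SE 0.12), which was not called (adjusted p = 0.0738, edgeR). Cd68 was called in 4 of the 17 alternatives, and the adjusted p ranged from 0.0256 to 0.266 over them. The promoters of Emr4 and Cd68 are given for comparison with those of the Ly6c genes, since one of these genes rose and the other was not called. They cover chr17:55749734-55749983 (plus strand) and chr11:69666171-69666420 (minus strand) of GRCm38.p6. Neither holds the exact letters GAGGAAGT or the ISRE core GAAANNGAA, and shorter forms of the PU.1 motif were not searched.
Emr4: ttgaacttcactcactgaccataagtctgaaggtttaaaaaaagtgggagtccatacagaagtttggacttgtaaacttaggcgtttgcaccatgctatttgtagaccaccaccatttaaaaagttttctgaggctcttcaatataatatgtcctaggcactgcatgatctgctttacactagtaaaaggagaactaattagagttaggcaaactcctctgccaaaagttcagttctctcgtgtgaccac
Cd68: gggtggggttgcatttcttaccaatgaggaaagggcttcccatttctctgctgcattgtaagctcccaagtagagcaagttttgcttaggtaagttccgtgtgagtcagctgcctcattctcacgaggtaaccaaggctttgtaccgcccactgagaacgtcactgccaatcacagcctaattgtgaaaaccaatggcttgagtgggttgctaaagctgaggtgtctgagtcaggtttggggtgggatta
Of the 9 genes, 6 had an entry in the RefSeq promoter table. Both windows of Plac8 also lacked these exact sequences.

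**Figure D2:**
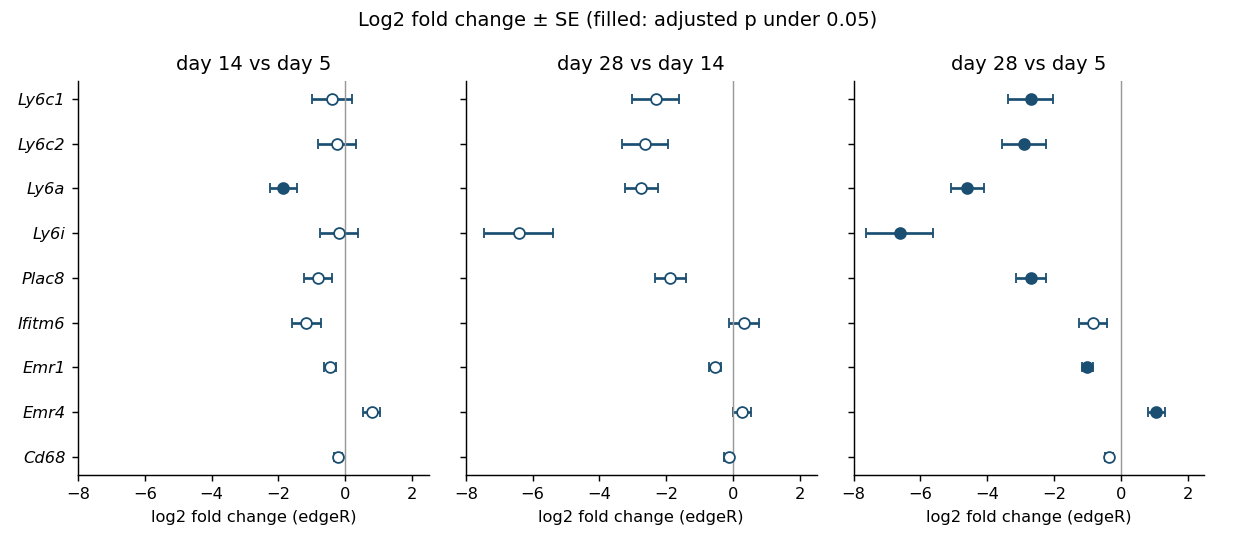
Log2 fold change from edgeR (x axis) of each gene (y axis) in the 3 comparisons, with bars for the SE and filled symbols for an adjusted p under 0.05. The Ly6 genes and Plac8 lie far to the left in day 28 vs day 5, Emr1 at -1.01 and Emr4 at 1.06. The value of Ly6i rests on 1 fragment at day 28.

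When the genes were ranked by mean FPKM within each day, Cd68, Emr1 and Plac8 held the first places throughout. Cd68 (1244 ± 37.1, 1057 ± 119 and 959 ± 59.9 FPKM at days 5, 14 and 28) and Emr1 were separated from each other and from the remaining genes without overlap of their libraries. At day 5, Plac8 (245 ± 70.5 FPKM) was clear of Ly6c2 (78.9 ± 25.3 FPKM), while the neighbors Ly6c2, Ly6a (59.9 ± 16.1 FPKM), Ly6c1 (54.3 ± 22.9 FPKM) and Ifitm6 (42.7 ± 3.37 FPKM) overlapped. Emr4 (5.75 ± 1.73 FPKM) and Ly6i (3.38 ± 0.903 FPKM) followed. At day 28 the order below Plac8 (37.4 ± 8.74 FPKM) had become Ifitm6 (23.1 ± 18.8 FPKM), Emr4 (11.8 ± 2.84 FPKM), Ly6c2 (10.3 ± 2.78 FPKM) and Ly6c1 (8.08 ± 2.65 FPKM), each of which overlapped with the next. Ly6a (2.33 ± 1.30 FPKM) lay below all of these. At day 14 every neighbor from Plac8 (139 ± 103 FPKM) down to Emr4 (9.90 ± 2.51 FPKM) overlapped. Relative to Cd68 in the same library, Ly6c2 stood at 0.0875, 0.0566 and 0.0466 at day 5, 0.1001 and 0.0187 at day 14, and 0.0134 and 0.00830 at day 28. The ratio of Emr1 to Cd68 spanned a narrower range, from 0.208 to 0.385.

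The comparison of day 14 with day 5 asks which early markers had already changed at the middle time point. With all 7 libraries, 1 of 9 genes was called lower (1.94% of all genes) and none higher (2.84% of all genes), edgeR, with 4 of 9 at an unadjusted p under 0.05, as were 3083 of the 12858 genes tested. DESeq2 called 3 (with 626 lower and 683 higher over all genes), edgeR without the expression filter 3 (628 and 801) and limma on log2(FPKM + 1) none (98 and 154). The call of Ly6a was lost when any 1 of the day 5 libraries, or day 14 replicate 2, was left out (no gene called), and without either day 28 replicate Ifitm6 was called in its place. Without day 14 replicate 1, Ly6c1, Ly6c2, Ly6a, Plac8 and Emr1 were called lower and Emr4 higher, against 7.34% and 5.62% of the genes tested in that fit. Between days 14 and 28, none of the 9 genes was called by edgeR, where 0.0311% of all genes were lower, and 6 of 9 had an unadjusted p under 0.05, against 1570 of the 12858 genes tested. DESeq2 called 2 (with 228 lower and 94 higher over all genes), edgeR without the filter 5 (265 and 125) and limma none (0 and 0). Without day 14 replicate 2, 6 genes were called lower at day 28 (Ly6c1, Ly6c2, Ly6a, Ly6i, Plac8 and Emr1) against 3.29% of all genes. In both of these fits the single day 14 library was assumed to vary like the others. Both comparisons share the day 14 libraries, and days 14 and 28 are each compared with the same day 5 libraries.

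The 2 day 14 libraries differed 6.28-fold in Ly6c2, 5.89-fold in Ly6c1, 3.18-fold in Plac8, 2.91-fold in Ly6i and 2.59-fold in Ly6a, each higher in replicate 1. These differences were large for the data, since the median absolute log2 difference between both libraries was 0.27 over all genes tested, and 99.0% of genes differed by less than Ly6c2. For Ifitm6 (1.16-fold), Cd68 (1.17-fold) and Emr1 (1.38-fold) the libraries were closer. Emr4 was lower in replicate 1, at 0.696 of its level in replicate 2. As a check against 1 library being listed under 2 names, counts in same-day libraries were compared with sampling noise. Chi-square divided by its degrees of freedom was 16.4 to 23.0 for pairs from day 5, 65.9 for day 14 and 49.9 for day 28. This was above sampling noise, so each library was kept as 1 sample.

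**Figure D3:**
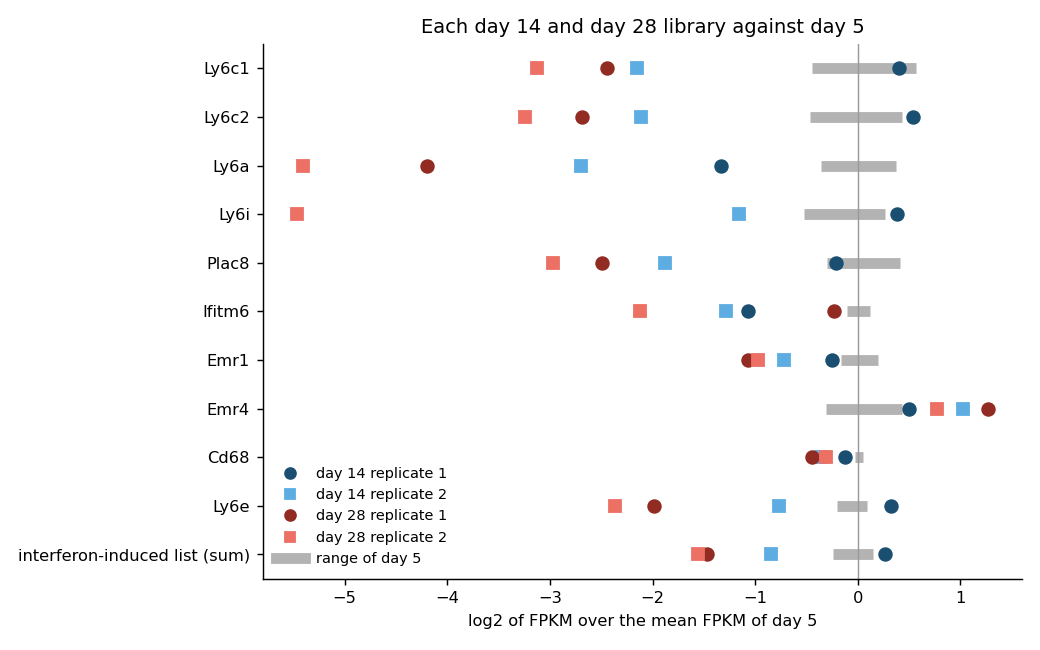
Log2 of the FPKM in each day 14 and day 28 library over the mean of the day 5 libraries (x axis) for the 9 genes, Ly6e and the summed FPKM of the interferon-induced genes (y axis), with gray bars for the range of day 5. Ly6i in day 28 replicate 1 had no fragment and is not drawn. Day 14 replicate 1 lies in or above the day 5 range for Ly6c1, Ly6c2, Ly6i, Ly6e and the interferon-induced sum, and replicate 2 lies below it.

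The calls at day 28 relative to day 5 depended on single libraries, although all 7 called genes kept their direction with any library left out. Without day 28 replicate 1, Ly6a and Ifitm6 were called, and without day 28 replicate 2, Ly6a, Ly6i, Emr1 and Emr4. Without day 5 replicate 1, the genes called were Ly6a, Ly6i, Plac8 and Emr1. Over all genes, 387 were then lower and 433 higher, against 965 and 994 with all libraries. Leaving out day 5 replicate 2 ended the call of Ly6c1 (over all genes 427 lower and 489 higher). Leaving out day 5 replicate 3 ended those of Ly6c1 and Emr4 (492 and 475). When either day 14 library was left out, the same 7 genes and Cd68 were called.

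The wider Ly6 family was read out next. Of 20 genes listed, 19 were quantified and 7 tested, and Ly6g was not analysed here. From day 5 to day 28, 5 of the 7 were called lower (against 7.51% of all genes tested) and none higher, with a median log2 fold change of -2.70 (0.03 over all genes tested), below which Ly6i lies even at the upper end of its interval. The 4 Ly6 members are among the genes called, and the median is the value of Ly6c1, so count and median largely repeat the members. Outside the members, Ly6e was called, a broadly expressed interferon-inducible gene and the most abundant of the family. The other tested genes of the family were not called. Ly6e was at 454.5, 455.5 and 371 FPKM at day 5, 534 and 250.2 FPKM at day 14, and 108 and 82.7 FPKM at day 28, and it fell by 2.14 between days 5 and 28 (adjusted p = 0.00275, edgeR). As for Ly6c2, day 14 replicate 1 exceeded all day 5 libraries. In the Ifitm family 5 of 7 genes were tested. With the expression filter and all libraries fitted together, edgeR called none between days 5 and 14 or 14 and 28, and Ifitm2 and Ifitm3 fell by 0.87 and 1.28 between days 5 and 28 (adjusted p = 0.00409 and 0.00586, edgeR; median of the family -0.87). Of the EGF-TM7 family 4 were tested, and beside Emr1 and Emr4 neither Cd97 (129 to 164 FPKM) nor Eltd1 (0.160 to 0.494 FPKM) was called. Among 3 tested genes of the lysosomal LAMP family to which Cd68 belongs, Lamp1 fell by 0.47 (adjusted p = 0.0296, edgeR), with 1118, 1049 and 1044 FPKM at day 5 and both day 28 libraries lower (787 and 742 FPKM), and Lamp2 ranged from 243 to 310.0 FPKM without a call.

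A list of 18 further genes of Ly6C-high monocytes moved in both directions. At day 28, 6 were called lower and 3 higher than at day 5 (against 7.51% and 7.73% of all genes tested), with a median log2 fold change of -0.20. Among the lower ones, Ms4a4c, a 4-pass membrane protein, fell by 2.34 and the matrix proteoglycan Vcan fell by 1.44 (adjusted p = 0.00885 and 0.00180, edgeR). Ms4a4c had the same split at day 14 (112 and 36.6 FPKM against 68.9 to 109 FPKM at day 5). Vcan, by contrast, was low in both day 14 libraries (12.7 and 9.53 FPKM against 28.1 to 35.6 FPKM at day 5). It was called there too, with the transglutaminase gene F13a1 and Gda. These were 3 of 18 lower and none higher, against 1.94% and 2.84% of all genes tested. On the other side, the protease Napsa rose by 0.79 between days 5 and 28 (adjusted p = 0.00861, edgeR). Fibronectin (Fn1), the gene of the list with the highest mean FPKM, was at 555, 867 and 713 FPKM at day 5, then at 753 and 1742 FPKM, and in the day 28 libraries at 1849 and 1825 FPKM. Ccr2, the chemokine receptor through which Ly6C-high monocytes are recruited, was named after its values were seen. It was at 68.5, 80.5 and 75.3 FPKM at day 5, 66.3 and 82.6 FPKM at day 14, and 148 and 98.8 FPKM at day 28, and rose by 0.74 from day 5 to day 28 (adjusted p = 0.0259, edgeR), against the direction of Ly6c2.

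Of 12 genes of Ly6C-low monocytes, 4 were called higher at day 14 than at day 5 (against 2.84% of all genes tested) and none lower (Treml4, Cx3cr1, Ear2 and Pglyrp1, median log2 fold change of the list 0.62). At day 28, 2 were called higher than at day 5 (against 7.73% of all genes) and none lower (median 0.48). Cx3cr1, the fractalkine receptor, was at 4.47, 7.15 and 3.56 FPKM at day 5, 12.6 and 25.3 FPKM at day 14, and 44.1 and 36.3 FPKM at day 28. The days did not overlap, and Cx3cr1 rose by 3.01 from day 5 to day 28 (adjusted p = 0.00107, edgeR). The other was Ear2, whose near-identical paralogs make its reads uncertain.

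A list of 30 genes shared by tissue macrophages was examined in the same way. At day 14, 2 were called lower than at day 5 (Ctsl and Abca1) and 1 higher (Pld3), against 1.94% and 2.84% of all genes tested. The median log2 fold change was 0.01. At day 28, 8 of 30 were called lower than at day 5 and 1 higher (against 7.51% and 7.73% of all genes tested). The median was -0.27 against 0.03 over all genes, and 22 had a negative log2 fold change. The Fc receptors Fcgr4 and Fcgr1 fell by 1.77 and 1.73, the cholesterol exporter Abca1 by 0.91 and the sialomucin Cd164 by 0.75 (adjusted p = 0.00143, 0.00210, 0.00464 and 0.00893, edgeR), and the lysosomal exonuclease Pld3 rose by 0.53. Csf1r, the receptor of the macrophage growth factor, ranged from 406 to 493 FPKM over the 7 libraries. Transcripts of the labeled cell type were thus present at every day. Of the 5 genes behind the gate, Cd14 and Emr1 were called lower at day 28 than at day 5 (against 7.51% of all genes tested). Cd14 was also called lower at day 14 than at day 5 (against 1.94%).

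**Figure D4:**
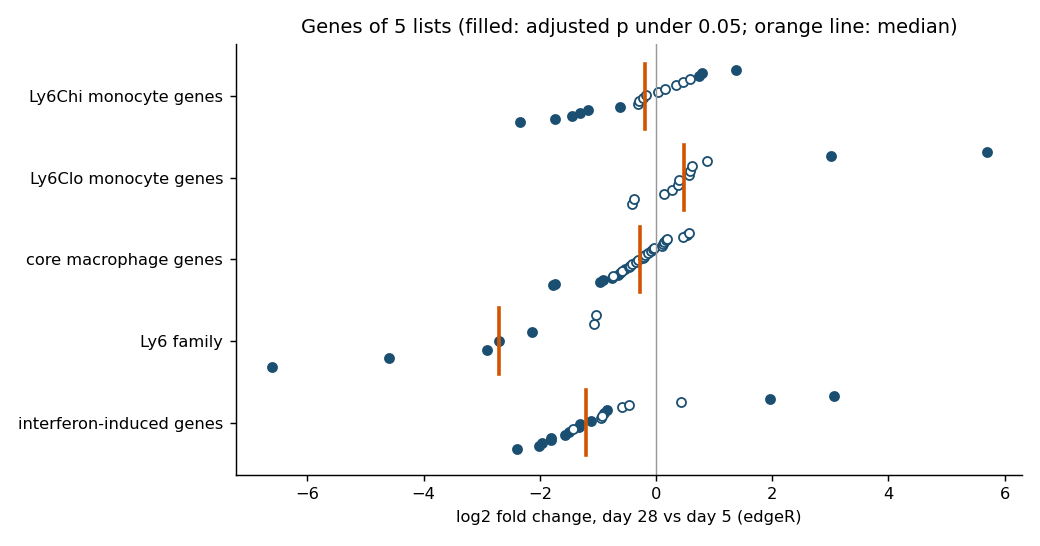
Log2 fold change from edgeR between days 5 and 28 (x axis) of the tested genes of 5 lists (y axis), with filled symbols for an adjusted p under 0.05 and orange lines for the median of each list. The medians are -0.20, 0.48, -0.27, -2.70 and -1.21 from top to bottom. The Ly6 family includes the members Ly6c1, Ly6c2, Ly6a and Ly6i.

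A list of interferon-induced genes was examined as a sum and gene by gene. Of 20 genes, 12 were called lower and 2 higher between days 5 and 28 (against 7.51% and 7.73% of all genes tested), with a median log2 fold change of -1.21. Their summed level, in which day 14 replicate 1 lay above and replicate 2 below the day 5 range, was 1464, 1377 and 1122 FPKM at day 5, 1589 and 737 FPKM at day 14, and 478 and 448 FPKM at day 28. The most abundant was Irf7, a transcription factor of the type I interferon response, at 609.5, 522 and 433 FPKM at day 5, 626 and 269 FPKM at day 14, and 105 and 91.5 FPKM at day 28. It fell by 2.40 between days 5 and 28 (adjusted p = 0.00267, edgeR). Usp18 fell by 1.81 and Oas1a fell by 1.31 (adjusted p = 0.00336 and 0.00446, edgeR). Ciita, the regulator of MHC class II genes, went the other way, at 2.11, 2.49 and 1.82 FPKM at day 5, 7.56 and 6.43 FPKM at day 14, and 7.77 and 8.84 FPKM in the day 28 libraries (log2 fold change 1.96, adjusted p = 5.41e-04, edgeR). It was the 1 gene of the list called between days 5 and 14, where 1.94% of all genes tested were lower and 2.84% higher. No list gene of this kind is a member, and the part of interferon in the course of the Ly6 genes was not tested.

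Markers of other cells were summed in each library, among them cells that the Lin- gate was set to exclude. For the calls in this and the next paragraph, 1.94% of all genes tested were lower and 2.84% higher at day 14 than at day 5. The shares were 7.51% lower and 7.73% higher at day 28 than at day 5. The neutrophil markers (11 quantified, 7 tested) reached 338, 349 and 362 FPKM at day 5, 600.5 and 587 FPKM at day 14, and 294 and 154 FPKM at day 28, with S100a9 (61.4 to 334 FPKM), which macrophages can also express, as the most abundant. Mmp8 and Csf3r were called lower at day 28 than at day 5, and Mmp8 also at day 14. Elane had no fragment in any library. The day 28 libraries, which differed in Ifitm6, also differed in S100a8 (115 and 41.6 FPKM) and S100a9 (137 and 61.4 FPKM), each higher in replicate 1. Retnlg (8.84 and 14.2 FPKM) and Csf3r (30.2 and 34.0 FPKM) of the same list were lower in replicate 1, and what part this had in Ifitm6 was not tested. The endothelial markers (10 quantified, 8 tested) summed to 28.4, 16.4 and 21.8 FPKM at day 5, 15.8 and 11.2 FPKM at day 14, and 12.0 and 6.77 FPKM at day 28. Kdr, the most abundant in the day 5 libraries, fell by 3.02 between days 5 and 28 and Pecam1 was also called lower, while Tek and Vwf were called higher, and the endothelial cadherin Cdh5 stayed between 0.768 and 1.82 FPKM. In day 14 replicate 1, where Ly6c1 was at 71.8 FPKM, the endothelial sum was below all day 5 values, although Kdr (8.64 FPKM) was within its day 5 range there and lower in replicate 2 (2.91 FPKM). An antibody to the Pecam1 protein shared the fluorophore of the exclusion antibodies but is not named as an exclusion marker, so whether the sort removed endothelial cells is unclear. The part of endothelial cells in Ly6a and Ly6c1 was not tested.

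The fibroblast markers (7 tested) were highest in day 14 replicate 1, with a sum of 223 FPKM against 81.2 FPKM in replicate 2, 28.8 to 74.1 FPKM at day 5, and 35.6 and 57.0 FPKM at day 28. Col1a2 was the 1 gene of this list called, higher at day 14 than at day 5, and Col1a1 had the highest mean FPKM. T cell markers (7 quantified, 3 tested) summed to 7.66, 7.44 and 6.89 FPKM at day 5, 18.1 and 20.8 FPKM at day 14, and 18.4 and 17.5 FPKM at day 28. Cd2 and Cd4 were called higher at day 28 than at day 5, Cd4 also at day 14, and Cd3e, which defines T cells, had 1 to 5 fragments per library. At day 14, the close T cell sums hide opposite differences between replicates 1 and 2, with Cd2 at 3.57 and 12.2 FPKM and Cd4 at 13.1 and 7.54 FPKM. The gate was set to exclude T cells, and also fibroblasts through Thy1.2. The part of fibroblasts and T cells in the split of the Ly6c genes was not tested. Dendritic cell markers (6 tested) summed to 8.18 to 30.4 FPKM, with Ccr7 called higher at day 28 than at day 5. Plasmacytoid dendritic cell markers (3 of 7 tested) summed to 10.4 to 19.7 FPKM, mostly from Tcf4, the 1 gene called (lower at day 28 than at day 5), with Siglech at most at 0.478 FPKM. The B cell list rested on Cd79b (4.38 to 10.3 FPKM, not called), with Pax5 at 0 or 1 fragment in each library. Schwann cell markers rested on Mbp (10.3 to 19.8 FPKM, called higher at day 28 than at day 5), with Sox10 at 0 to 4 fragments. Eosinophil markers summed to 1.79 to 5.71 FPKM, with Siglec5 called higher at day 28 than at day 5 and Epx at 0 or 1 fragment per library. Elane, Cd3e, Pax5, Sox10 and Epx were singled out after their values were seen. Of 8 cell cycle genes, Mcm5, Ccnb1, Top2a and Cdk1 were called higher at day 14 than at day 5 (against 2.84% of all genes tested, median of the list 0.90), and Top2a also at day 28 (median 0.46). At both days 6 genes had a positive and 2 a negative log2 fold change relative to day 5. The negative ones were Mki67 (-0.41 and -0.46 at days 14 and 28) and Pcna (-0.22 and -0.08), neither called.

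Over all lists, 52 of 140 tested genes outside the 9 members were called between days 5 and 28 (over all 12858 genes, 965 lower and 994 higher), 19 between days 5 and 14 (249 and 365), and none between days 14 and 28 with edgeR (26 with DESeq2, 0 with limma). The first count was 31, 32 and 33 without day 5 replicates 1, 2 and 3, 24 and 28 without day 28 replicates 1 and 2, and 70 and 69 without day 14 replicates 1 and 2. The second was 4, 5 and 2 without day 5 replicates 1, 2 and 3, and 49 without day 14 replicate 1. Without day 14 replicate 2, 41 list genes were called between days 14 and 28. Calls over all genes moved as well. Between days 5 and 28 they went from 176 lower and 276 higher without day 28 replicate 1 to 1402 lower and 1344 higher without day 14 replicate 1, and between days 5 and 14 from 20 lower and 32 higher without day 5 replicate 3 to 979 lower and 749 higher without day 14 replicate 1.

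The genes whose course was most like that of 3 members were then sought among 7556 genes with a mean of at least 5 FPKM. Likeness was the Pearson correlation of log2 TMM-normalized counts over the 7 libraries, which share their depth and composition within each library, and it is given as a description. For Ly6c2 the nearest was Ly6c1 (r = 0.994), followed by Tox4 (0.992) and Il4ra, the interleukin 4 receptor (0.991). Il4ra was at 84.2, 71.8 and 63.7 FPKM at day 5, 88.1 and 41.5 FPKM at day 14, and 34.7 and 35.5 FPKM at day 28, with the same order of the day 14 libraries. Tox4 moved over a much smaller range (14.2 to 17.9 FPKM). For Emr1 the nearest genes were Entpd1, the ectonucleotidase CD39 (0.996), Mgrn1 (0.993) and Mrpl54 (0.993), and for Cd68 they were Zcchc6 (0.997), Dab2 (0.996) and thrombomodulin (Thbd, 0.994). Among the members themselves, the r with Emr1 was 0.976 for Plac8, 0.960 for Ly6a, 0.937 for Ly6c2 and 0.934 for Ly6c1. It was 0.932 for Cd68, 0.609 for Ifitm6 and -0.87 for Emr4. By this measure the macrophage-associated Emr1 was closer to Plac8 than to Cd68 or Emr4.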

How the data were processed

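Single-end reads of the 7 libraries had been trimmed (cutadapt 1.8), aligned to mm10 (TopHat2 2.0.13) and quantified per gene (Cuffdiff 2.2.1), per the submitters' processing notes. The deposited expected counts are the unscaled fragments that Cuffdiff assigned to a gene. Multiplied by a library factor they form the scaled signal, as deposited. From this signal the authors derived FPKM by transcript length and library size. How strand and reads with several matches were handled is not given in the sources used here.

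Of the deposited fragment values, 1.01% were not whole numbers. They were rounded and passed to edgeR (version 4.0.16, R 4.3.3) with TMM scaling and filterByExpr. A model of all libraries by day was fitted, and contrasts were tested with the quasi-likelihood F test and Benjamini-Hochberg adjustment over the 12858 genes kept. Genes were called at an adjusted p under 0.05. Standard errors (SE) were derived from the F statistic. FPKM values are given as mean ± SD. Detection required more than 3 fragments. The fit was also run on simulated fragments, and what this showed is not reported here. The alternatives used DESeq2 1.42.0, limma 3.58.1, other scaling, no filter, fewer time points, a replicate block, single libraries left out and an adjusted p under 0.01.

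The members and lists were chosen with earlier results of these data known. Genes were named by a rule: the 9 members, up to 4 genes per list and comparison with the lowest adjusted p (or the most abundant where none was called), and the 3 genes most like Ly6c2, Emr1 and Cd68. Outside this rule, Ccr2, Elane, Cd3e, Pax5, Sox10 and Epx were named after their values were seen. Coordinates and transcripts are from GENCODE M21, promoters from RefSeq. Transcripts were aligned with Biopython, and plots were drawn with matplotlib 3.10.9. Some planned motif and list gene results are not reported here.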

Additional observations from a re-analysis of the deposited data

How the results depend on the processing

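Between days 5 and 28, 7 of the 9 members were called with all libraries, and 6 to 8 with the other test, the other scalings, no filter, limma, the 2 time points alone and the replicate block. The count was 4 at an adjusted p under 0.01, and 2 to 8 with single libraries left out. Between days 5 and 14 it was 1 with all libraries, 3 with DESeq2, 3 without the filter, 0 with limma at either pseudocount, 0 at an adjusted p under 0.01, and 0 to 6 with single libraries left out. Between days 14 and 28 it was 0 with all libraries, 2 with DESeq2, 5 without the filter, and 0 to 6 with single libraries left out. The causes were not tested.

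For genes of the lists outside the members, 19 were called between days 5 and 14 with all libraries, against 29 with DESeq2, 41 without the filter, 12 with limma at either pseudocount, 2 at an adjusted p under 0.01 and 2 to 49 with single libraries left out. Between days 14 and 28 none was called with edgeR, 26 with DESeq2, 33 without the filter and 0 to 41 with single libraries left out. Between days 5 and 28, the count of 52 became 24 at an adjusted p under 0.01 and 24 to 70 with single libraries left out.

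Same-numbered libraries share only a number. Their deviations from the group means correlated at 0.402 and 0.047 between days 5 and 14, -0.146 between days 14 and 28, and -0.042 and 0.044 between days 5 and 28 (Pearson's r across 7556 genes, which are not independent replicates). With the replicate number as a block, 1, 0 and 6 members were called for day 14 vs 5, 28 vs 14 and 28 vs 5, and 0, 0 and 28 list genes (residual degrees of freedom 2, against 4 without the block). Over all genes, this block called 3 lower and 3 higher, then none, then 380 lower and 355 higher. With the day 28 numbers swapped, a block chosen after seeing the data, 2, 1 and 7 members and 15, 9 and 53 list genes were called. Lower and higher over all genes were then 164 and 193, 40 and 23, and 839 and 740.

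Over 459 alternative results of single members, 8 had the other sign, none of them called. Those at an adjusted p under 0.01 keep the main fit and so cannot change sign. With single libraries left out, the log2 fold change between days 5 and 14 ranged from -2.20 to 0.41 for Ly6c1, -2.10 to 0.54 for Ly6c2 and -1.14 to 0.39 for Ly6i. It was positive for all 3 without day 14 replicate 2, and for the Ly6c genes also without day 5 replicate 1 (0.03 for both). Between days 14 and 28 it ranged from -0.95 to 0.94 for Ifitm6 and -0.016 to 0.56 for Emr4, negative without day 28 replicate 1, and was -2.23e-04 for Ifitm6 with limma on log2(FPKM + 0.1). Groups of 2 or 3 libraries, and the low counts of Ly6i, limit what these data can resolve.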
